A study of Mus musculus with 6 samples.

Results

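Amacrine cells are the inhibitory interneurons of the inner retina. Most of them release GABA or glycine onto bipolar cells, ganglion cells and each other, and smaller classes add acetylcholine, dopamine or a peptide to this transmission. The genes described here were 9 that are commonly used to recognize these cells: the transcription factors Tfap2a and Tfap2b, the GABA-synthesizing enzymes Gad1 and Gad2, the transporters Slc6a9 and Slc32a1, the transmitter-synthesizing enzymes Chat and Th, and the calcium-binding protein gene Calb2. They were chosen by symbol from the 24062 genes of the count table. All 9 were among the 16904 genes with at least 10 counts summed over the libraries, which were the genes tested.

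Whole retinae of C57BL/6 mice (C57BL/6N in the study's methods) at P21 (postnatal day 21) were profiled by RNA-seq. One group carried Chx10-Cre Rb1/p107/Hells (Rb1/p107/Hells TKO, n = 3) and the other Chx10-Cre Rb1/p107 (Rb1/p107 DKO, n = 3), so that both groups had the Cre driver, conditional Rb1 alleles and germline loss of p107, and differed in the conditional Hells alleles. Hells encodes a chromatin-remodeling helicase, Rb1 and p107 (gene symbol Rbl1) encode proteins that hold back E2F factors, and Rb1/p107 DKO retinae develop retinoblastoma. Per the study Chx10-Cre acts in progenitors in a mosaic pattern, so each retina also held cells without recombination, and no wild-type retina is compared here.

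Each library was 1 retina and summed to between 10343907 and 14203098 counts, and replicates of a genotype differed beyond counting error, at 8.97 to 26.6 chi-square units per degree of freedom. The labels do not say whether the retinae came from separate animals, so the p-values measure the spread between these samples. Hells was at 70.9 ± 11.5 normalized counts in Rb1/p107/Hells TKO and 532 ± 142 in Rb1/p107 DKO retinae (SD, n = 3 each). Rb1 was at 748 ± 66.0 against 591 ± 23.5 and Rbl1 at 20.3 ± 7.02 against 18.6 ± 4.87 normalized counts, and such totals over a gene can hold reads from outside a deleted part. Rb1 was thus higher in Rb1/p107/Hells TKO retinae (log2 fold change 0.34, adjusted p = 0.0388 by edgeR). Whether the share of recombined cells differed between the groups was not tested. The marker genes of rods, cones, bipolar cells and Müller glia were all among the genes tested. Being tested required only 10 summed counts, so this is a weak check of the retinal label.

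The 5′ flanks of Gad1, Gad2 and Slc32a1 are shown first, because these genes make and load GABA, the ratio of Gad1 to Gad2 is compared below, and the Gad2 and Slc32a1 flanks hold the searched letters described next. Each stretch is on the plus strand of GRCm38.p6, lies before a RefSeq start and reads 5′ to 3′. Those of Gad2 and Slc32a1 lie before all annotated exons of their gene. That of Gad1 lies inside the annotated span of the gene, outside its exons. Capitals mark the AP-2 letters in Gad2 and the E2F letters in Slc32a1.
Gad2, chr2:22622077-22622204: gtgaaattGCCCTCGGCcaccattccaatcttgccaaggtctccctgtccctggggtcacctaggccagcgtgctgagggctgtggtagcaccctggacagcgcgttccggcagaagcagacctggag
Gad1, chr2:70561879-70562041: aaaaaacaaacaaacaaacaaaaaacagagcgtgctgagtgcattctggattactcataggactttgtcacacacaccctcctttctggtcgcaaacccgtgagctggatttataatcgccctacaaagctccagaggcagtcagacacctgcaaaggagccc
Slc32a1, chr2:158610724-158610757: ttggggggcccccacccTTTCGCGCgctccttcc

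Promoter windows of 300 bases, from 250 before to 50 after a RefSeq start, were found for 8 of the 9 genes (11 windows). Both strands were searched for GCCNNNGGC, letters that AP-2 proteins such as the products of Tfap2a and Tfap2b bind, for the E2F letters TTTCGCGC or TTTGGCGC, and for the E-box CAGCTG. Gad2 was the only one of the 8 genes with the AP-2 letters, which 16.6% of all 32851 windows held. Slc32a1 alone had the E2F letters, held by 0.813% of all windows, and Chat alone had the E-box, held by 16.3%. The Gad1 window had 21 CpG dinucleotides, the Slc32a1 window 17 and the Gad2 window 14, against a median of 7 over all windows. A match of letters describes the sequence and says nothing of binding in these retinae.

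None of the 9 amacrine cell genes passed an adjusted p of 0.05 between the genotypes in edgeR's quasi-likelihood test. Over all genes tested, 9.2% passed as lower and 7.35% as higher in Rb1/p107/Hells TKO retinae. An unadjusted p under 0.05 was reached by 3 of the 9, Gad2 and Tfap2b with lower means and Chat with a higher mean. Over all genes tested 17.8% reached it as lower and 15.3% as higher, so the share among the 9 genes was near the background. DESeq2 gave an adjusted p under 0.05 to the same 3, beside 10.6% of all genes lower and 8.94% higher in that tool. With the fold criteria of the study's methods (log2 fold change of 1 or more in either direction, an adjusted p no higher than 0.05 and a mean count no lower than 10), 0 of 9 were called by either tool. Beside this, edgeR called 4.38% of all genes lower and 1.97% higher. That was 1074 genes in all, and DESeq2 called 1151. The fitted log2 fold change was below 0 for 4 genes and above 0 for 5, with a median of 0.068 over the 9 and -0.011 over all genes. For 8 of the 9 the 95% interval of the log2 fold change lay between -1 and 1, and the interval of Chat reached above 1. In such bulk samples fewer cells of a type and less RNA per cell cannot be told apart.

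**Figure D1:**
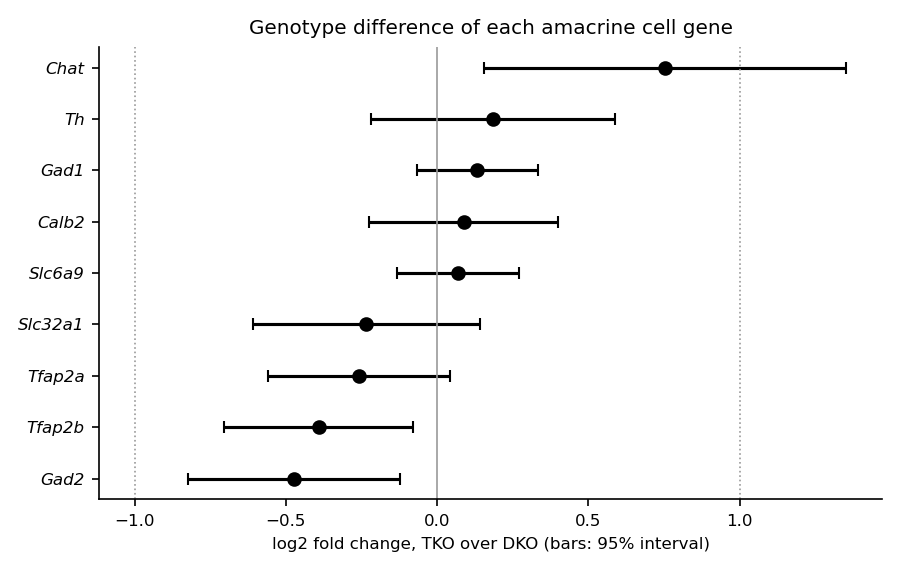
Log2 fold change (Rb1/p107/Hells TKO over Rb1/p107 DKO, x axis) of each amacrine cell gene from edgeR, with its 95% interval as a bar and dotted lines at -1 and 1. The points run from -0.47 for Gad2 to 0.75 for Chat, and only the interval of Chat crosses a dotted line.

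Tfap2a and Tfap2b encode AP-2 transcription factors that mark amacrine and horizontal cells and act in their specification. Tfap2b (chr1:19208914-19238576, plus strand, GRCm38) had 3155, 3695 and 4360 normalized counts in Rb1/p107/Hells TKO replicates 1 to 3, and 5294, 5137 and 4276 in Rb1/p107 DKO replicates 1 to 3. The means were 3737 ± 604 and 4902 ± 548 (SD, n = 3 each), for a log2 fold change of -0.39 (SE 0.137, 95% interval -0.71 to -0.078, adjusted p = 0.0860 by edgeR). The highest Rb1/p107/Hells TKO retina and the lowest Rb1/p107 DKO retina, both replicate 3, crossed, so the groups overlapped.

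Tfap2a (chr13:40715302-40738376, minus strand) was the less abundant of the pair. It had 494, 580 and 679 normalized counts in the Rb1/p107/Hells TKO retinae and 758, 721 and 618 in the Rb1/p107 DKO retinae. Its log2 fold change was -0.26 (SE 0.131, 95% interval -0.56 to 0.042, adjusted p = 0.207 by edgeR), and its groups overlapped through replicate 3 as for Tfap2b.

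Gad1 and Gad2 encode the enzymes that make GABA from glutamate. Gad2 (chr2:22622205-22693874, plus strand) had 1429, 1615 and 1956 normalized counts in Rb1/p107/Hells TKO retinae and 2683, 2363 and 1887 in Rb1/p107 DKO retinae. Its means were 1667 ± 267 and 2311 ± 400 (SD, n = 3 each), and its log2 fold change was -0.47 (SE 0.153, 95% interval -0.82 to -0.12, adjusted p = 0.0697 by edgeR). This was the smallest p of the 9 genes (0.0143 unadjusted), and again only the replicate 3 retinae crossed.

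Gad1 (chr2:70553072-70602014, plus strand) had a fitted change of the opposite sign. It had 6954, 7576 and 7638 normalized counts in Rb1/p107/Hells TKO and 6806, 6873 and 6534 in Rb1/p107 DKO retinae, with means of 7389 ± 378 and 6738 ± 180 (SD, n = 3 each). The log2 fold change was 0.13 (95% interval -0.068 to 0.33, adjusted p = 0.324 by edgeR). Gad1 was the only one of the 9 genes whose groups did not overlap, with every Rb1/p107/Hells TKO retina above every Rb1/p107 DKO retina. Over all genes tested, 18% were separated in that direction and 20.6% in the other.

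**Figure D2:**
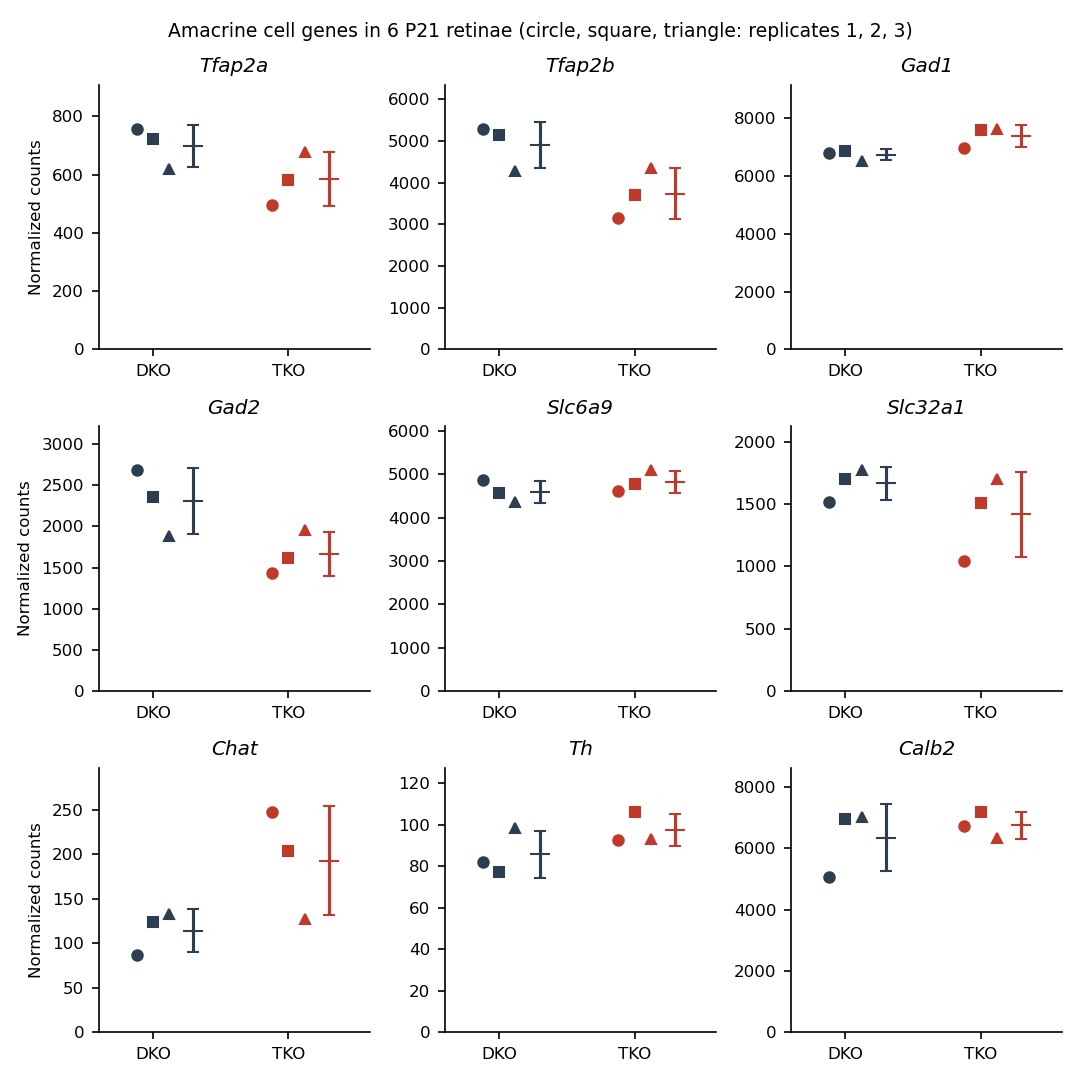
Normalized counts (y axis, from 0) of each amacrine cell gene in every retina, with replicates as points and the mean ± SD of each genotype (n = 3). Tfap2a, Tfap2b and Gad2 run from a low Rb1/p107/Hells TKO replicate 1 to a high Rb1/p107 DKO replicate 1 with replicate 3 of both genotypes between them, and Gad1 is the only gene whose genotypes do not overlap.

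The ratio of Gad1 to Gad2 within a library does not depend on how libraries are scaled. On the log2 scale of counts it was 2.28, 2.23 and 1.96 in the Rb1/p107/Hells TKO retinae and 1.34, 1.54 and 1.79 in the Rb1/p107 DKO retinae. The means of 2.16 ± 0.170 and 1.56 ± 0.225 (SD, n = 3 each) differed by 0.60, or a ratio of 4.47 against 2.94, and the groups did not overlap. A two-sided exact permutation test gave p = 0.1, the smallest that 3 against 3 can give (adjusted p = 0.2 over 4 ratios).

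The ratio of Tfap2a to Tfap2b varied little across the 6 retinae. Its log2 values were -2.67, -2.67 and -2.68 in Rb1/p107/Hells TKO and -2.80, -2.83 and -2.79 in Rb1/p107 DKO retinae, a difference of 0.13 with a counting error of 0.0511 (exact permutation p = 0.1, adjusted p = 0.2). The groups did not overlap, although the counting error of a single library reached 0.0747, above the spread within either group. Of the other ratios, Slc6a9 to Slc32a1 differed by 0.33 and Chat to Gad1 by 0.59 on the log2 scale, and both overlapped between genotypes (exact permutation p = 0.3 and adjusted p = 0.3 for each).

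**Figure D3:**
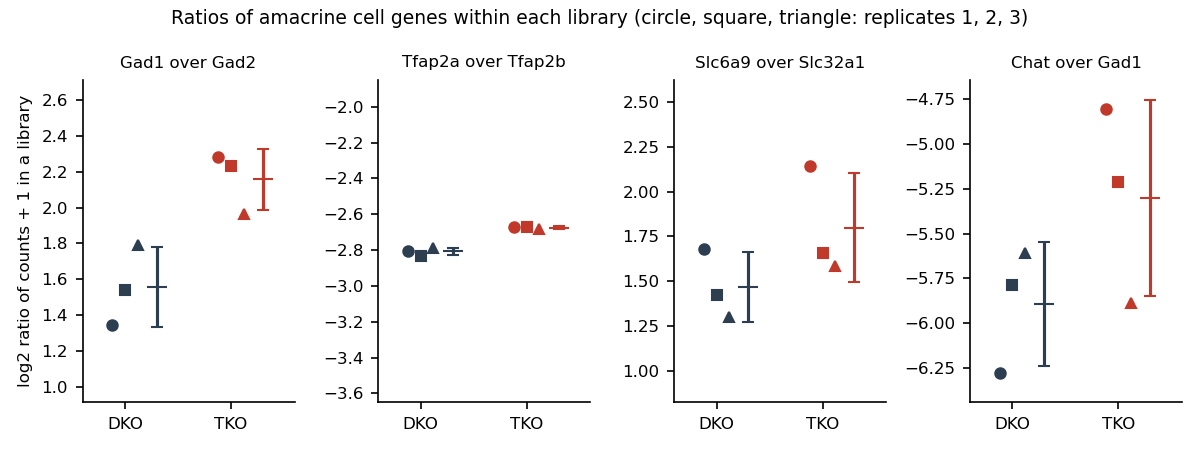
Log2 ratio of counts (with 1 count added to each gene) of 4 gene pairs within each library, with the mean ± SD of each genotype (n = 3). The y axes do not start at 0 and span the same range in each panel. Gad1 over Gad2 lies from 1.96 to 2.28 in Rb1/p107/Hells TKO and from 1.34 to 1.79 in Rb1/p107 DKO retinae.

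Slc6a9 encodes GlyT1, the glycine transporter of glycinergic amacrine cells, and Slc32a1 encodes VGAT, which loads GABA and glycine into synaptic vesicles in amacrine and horizontal cells. Slc6a9 (chr4:117834506-117875198, plus strand) had 4605, 4770 and 5094 normalized counts in Rb1/p107/Hells TKO and 4868, 4572 and 4362 in Rb1/p107 DKO retinae. The groups overlapped, with a log2 fold change of 0.068 (95% interval -0.13 to 0.27, adjusted p = 0.628 by edgeR). Its exons share 1429 bases with Ccdc24 and 46 with B4galt2 on the opposite strand. Those of Slc32a1 share 697 bases with Gm14205 and those of Tfap2a 380 bases with Gm26688, also on the opposite strand. The study's methods name a stranded library kit. The strand setting of the counting is not given in the sources used here, so the reads of these 3 genes and of their neighbors may not be told apart. Over the 6 libraries Ccdc24 had 4195 and B4galt2 4606 counts, beside 28145 for Slc6a9. Gm14205 and Gm26688 were not in the count table.

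Slc32a1 (chr2:158610767-158615748, plus strand) had 1040, 1510 and 1696 normalized counts in Rb1/p107/Hells TKO and 1517, 1704 and 1771 in Rb1/p107 DKO retinae. Replicate 1 of Rb1/p107/Hells TKO stood below the other 5 retinae, which lay from 1510 to 1771. The log2 fold change was -0.23 (95% interval -0.61 to 0.14, adjusted p = 0.356 by edgeR).

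Chat encodes choline acetyltransferase, which makes acetylcholine in starburst amacrine cells. Chat (chr14:32408203-32465989, minus strand) had 248, 203 and 128 normalized counts in Rb1/p107/Hells TKO replicates 1 to 3 and 86.6, 123 and 133 in Rb1/p107 DKO replicates 1 to 3. The means were 193 ± 60.7 and 114 ± 24.5 (SD, n = 3 each), and the log2 fold change was 0.75 (SE 0.262, 95% interval 0.15 to 1.35, adjusted p = 0.0850 by edgeR). Replicates 1 and 2 of Rb1/p107/Hells TKO stood above all other retinae, whereas replicate 3 lay within the Rb1/p107 DKO range. Slc18a3, the vesicular acetylcholine transporter gene, lies inside Chat on the same strand and shares no exon bases with it in the annotation used. Its means were 76.5 ± 13.4 and 56.3 ± 17.0 normalized counts (log2 fold change 0.44, adjusted p = 0.291 by edgeR).

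Th encodes tyrosine hydroxylase, the first enzyme of dopamine synthesis, and marks the sparse dopaminergic amacrine cells. Th (chr7:142892752-142931128, minus strand) had 92.9, 106 and 93.3 normalized counts in Rb1/p107/Hells TKO and 81.9, 77.0 and 98.4 in Rb1/p107 DKO retinae. The groups overlapped, and the log2 fold change was 0.18 (95% interval -0.22 to 0.59, adjusted p = 0.502 by edgeR).

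Calb2 encodes calretinin, a calcium-binding protein of several amacrine types and of ganglion cells. Calb2 (chr8:110137502-110168210, minus strand) had 6728, 7185 and 6315 normalized counts in Rb1/p107/Hells TKO and 5075, 6936 and 7018 in Rb1/p107 DKO retinae. Replicate 1 of Rb1/p107 DKO was the lowest of the 6 and the other 5 lay from 6315 to 7185. The log2 fold change was 0.088 (95% interval -0.22 to 0.40, adjusted p = 0.693 by edgeR).

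Levels were set in order as normalized counts per kilobase of annotated exon. In Rb1/p107/Hells TKO retinae Calb2 was highest with a mean of 3869 per kilobase, followed by Gad1 (967), Slc6a9 (938), Tfap2b (590), Slc32a1 (506), Gad2 (284), Tfap2a (119), Th (41.2) and Chat (41.0). The neighbors Gad1 and Slc6a9, Tfap2b and Slc32a1, and Th and Chat overlapped between retinae there. In Rb1/p107 DKO retinae the means per kilobase were 3639 for Calb2, 895 for Slc6a9, 882 for Gad1, 774 for Tfap2b, 595 for Slc32a1, 393 for Gad2, 143 for Tfap2a, 36.3 for Th and 24.3 for Chat. Of these neighbors only Slc6a9 and Gad1 overlapped. The order was thus the same in both genotypes except for the exchange of Gad1 and Slc6a9, whose ranges overlapped in each.

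Tfap2a, Tfap2b, Gad2 and Slc6a9 shared an order of the retinae within each genotype. Each was lowest in replicate 1 and highest in replicate 3 of Rb1/p107/Hells TKO, and highest in replicate 1 and lowest in replicate 3 of Rb1/p107 DKO. Chat had the opposite order. Over the 6 libraries Pearson's r of log2 CPM (counts scaled to a common TMM-adjusted library size) was 0.983 between Tfap2b and Gad2 and -0.959 between Chat and Gad2, as a description, since the libraries also share their genotype and scaling. Gad1 had an r of -0.312 with Gad2. Slc6a9 had an r of 0.192 with Gad2 and a log2 fold change of 0.068, so this order also occurred in a gene with close group means.

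Taken as a sum, marker genes of dividing cells had the same order of replicates within each genotype as Tfap2a, Tfap2b, Gad2 and Slc6a9. Between genotypes the sum did not overlap, whereas each of these members did. Singly, Ccnb1 and Mcm6 were highest in replicate 2 of Rb1/p107 DKO. The summed level of 8 genes of dividing cells was 52.3, 97.2 and 205 CPM in Rb1/p107/Hells TKO replicates 1 to 3 and 948, 745 and 477 in Rb1/p107 DKO replicates 1 to 3. All 8 fell, with a median log2 fold change of -2.65, and its most abundant genes were Top2a (-3.21) and Mki67 (-2.52). The summed level of 10 rod genes was 56679, 48508 and 28212 CPM in Rb1/p107/Hells TKO and 9945, 9690 and 18353 in Rb1/p107 DKO retinae. All 10 rose, with a median log2 fold change of 1.73, including Gnat1 (1.84), the rod transducin gene. The rod sum was lowest in replicate 2 of Rb1/p107 DKO, so it did not follow the replicate order of Chat there. Replicate 3 was in both genotypes the retina nearest to the other genotype on both sums.

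Other marker lists also held genes that passed the adjusted p in edgeR. Over all genes tested, 9.2% passed as lower and 7.35% as higher. Of 8 microglia genes 5 fell, and their summed level was 132, 168 and 231 CPM in Rb1/p107/Hells TKO and 343, 399 and 263 CPM in Rb1/p107 DKO retinae. Of 8 Müller glia genes 4 rose and 2 fell, of 12 bipolar cell genes 4 rose and of 8 cone genes 2 rose, with sums of 5018 to 5074 against 3967 to 4218 CPM, 1634 to 2216 against 1402 to 1662 CPM and 547 to 1421 against 382 to 626 CPM. The bipolar and cone sums overlapped between genotypes. The part of dividing cells, rods and these other cells in the values of Tfap2a, Tfap2b, Gad2 and Chat was not tested.

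Replicate 3 of both genotypes was left out in a comparison chosen after the values were seen, which leaves 2 retinae against 2. These are the retinae through which Tfap2a, Tfap2b and Gad2 overlapped, so a larger difference followed from the choice and supports no call. In edgeR 4 of the 9 genes had an adjusted p under 0.05 then, with log2 fold changes of -0.72 for Gad2, -0.60 for Tfap2b, -0.45 for Tfap2a and 1.11 for Chat. Leaving out only Rb1/p107/Hells TKO replicate 3 gave adjusted p-values of 0.0282 for Gad2, 0.0291 for Tfap2b and 0.0169 for Chat, and leaving out only Rb1/p107 DKO replicate 3 gave 0.0228 for Gad2 and 0.0473 for Tfap2b. Over all genes 28.3% passed without replicate 3 of both genotypes, against 16.6% with all 6 retinae. The share was 21.4% without Rb1/p107/Hells TKO replicate 3 only and 19.2% without Rb1/p107 DKO replicate 3 only.

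**Figure D4:**
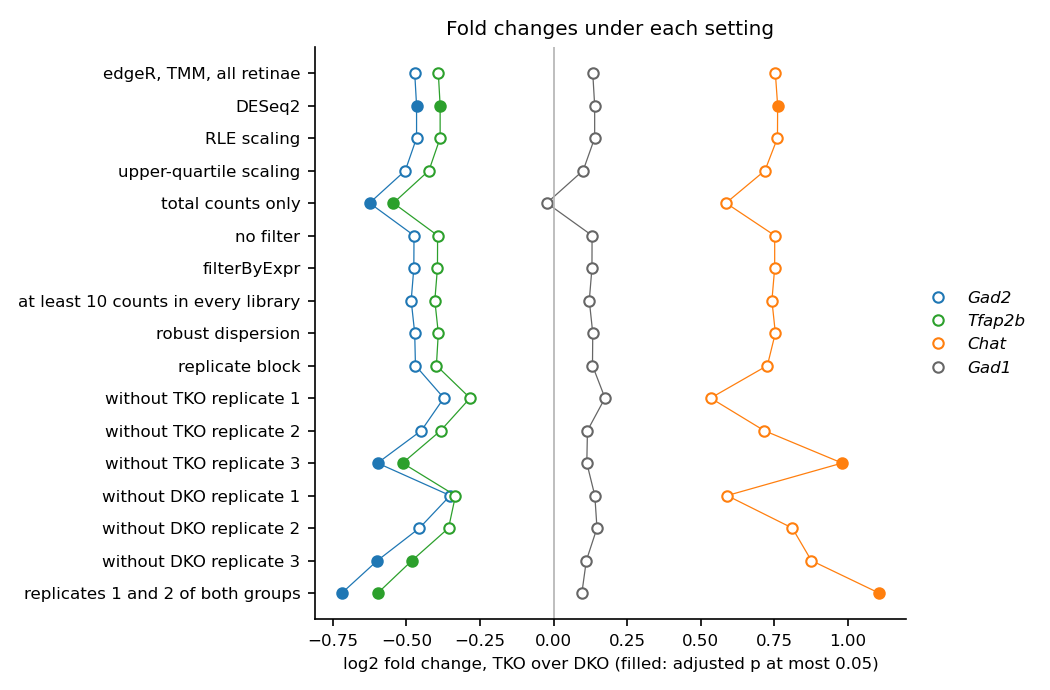
Log2 fold change (Rb1/p107/Hells TKO over Rb1/p107 DKO) of Gad2, Tfap2b, Chat and Gad1 (colors) under the edgeR test with all retinae and under each alternative (y axis), filled where the adjusted p was at most 0.05. In the settings drawn, Gad2 and Tfap2b lie below 0 and Chat above 0, and Gad1 lies above 0 except with total counts only.

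The genes most like each of the 3 members with the smallest p were read from the 11673 genes with a mean of at least 100 normalized counts, by Pearson's r of log2 CPM over the 6 libraries. For Gad2 these were Cyp7b1 (0.996), Zfp367 (0.996) and Coro2a (0.994). For Tfap2b they were Dsc2 (0.997), Kctd6 (0.997) and Nr2f1 (0.996), and for Chat Mpped2 (0.997), Gngt2 (0.994) and Siah1a (0.993). Gngt2 also stands in the cone list. These r were picked as the highest of the 11673 over only 6 libraries that share their genotype, so they are a description and were not tested.

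Other genes of amacrine cells were read from 7 lists by role. Of these 67 further genes, 11 fell and 2 rose in Rb1/p107/Hells TKO retinae by edgeR's adjusted p, beside the 9.2% of all genes that passed as lower and the 7.35% that passed as higher, with a median log2 fold change of -0.097 beside -0.011 over all genes. The falling genes came from the transcription factors and from the starburst list, and the genes for transmitter handling, dopamine synthesis and the synapse had no gene that passed.

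Of 21 transcription factors of amacrine fate and subtype, 10 fell and 0 rose, with a median log2 fold change of -0.60, and 5 of the 10 met the fold criteria. Foxn4, a progenitor factor required for amacrine and horizontal cells, had 15, 20 and 50 counts in Rb1/p107/Hells TKO and 361, 299 and 164 in Rb1/p107 DKO retinae (log2 fold change -2.91, adjusted p = 0.00926 by edgeR). Ebf2, a helix-loop-helix factor of inner retinal neurons, had 7, 8 and 13 against 143, 93 and 90 counts (log2 fold change -3.18, adjusted p = 0.00513 by edgeR). Ptf1a, which acts after Foxn4, was at 0 counts in every Rb1/p107/Hells TKO retina and at 10, 15 and 9 in the Rb1/p107 DKO retinae. It was at least 2.74-fold lower when set against 3 counts per library (adjusted p = 0.0125 by edgeR). All 3 genes were lower in the genotype where the summed genes of dividing cells were lower, and the part of progenitor-like or dividing cells in their values was not tested.

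The other factors that fell had smaller fold changes than Foxn4 and Ebf2. Tfap2d, another AP-2 gene, fell by 1.49 on the log2 scale (adjusted p = 0.00766), and Sox2, a factor of progenitors, Müller glia and starburst cells, by 1.15 (adjusted p = 0.00627). Neurod6 fell by 1.13 (adjusted p = 0.0248) and Neurod2 by 0.70 (adjusted p = 0.0446), both neurogenic factors of amacrine subtypes. Prdm13, which acts in the specification of amacrine cells, fell by 0.87 (adjusted p = 0.0162), Ebf3 by 0.80 (adjusted p = 0.00821) and Barhl2 by 0.70 (adjusted p = 0.0116, all by edgeR). Foxn4, Ebf2, Ebf3, Sox2 and Tfap2d passed in all 6 comparisons with 1 retina left out, Ptf1a and Barhl2 in 4 of 6, Prdm13 in 3 of 6, and Neurod2 and Neurod6 in 2 of 6. Pax6, the most abundant factor of the list that did not pass, had 5764 ± 859 against 6869 ± 537 normalized counts (log2 fold change -0.25, adjusted p = 0.196).

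Of 8 starburst and cholinergic genes, 2 fell, with a median log2 fold change of -0.23. They were Sox2 and Megf11, a membrane protein gene that acts in the spacing of starburst cells (-0.45, adjusted p = 0.0129 by edgeR). Ache, the acetylcholine-degrading enzyme, had a log2 fold change of -0.033 (adjusted p = 0.851). Chat had a fitted change of the opposite sign to both genes that passed. Of the 8 genes, 3 were fitted above 0 and 5 below. Slc18a3 (0.44) and Slc5a7 (0.21, adjusted p = 0.565 by edgeR) had the sign of Chat, and Megf10 (-0.44) and Fezf1 (-0.90) had the opposite sign.

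Of 8 genes for GABA and glycine handling, 0 passed the adjusted p in edgeR (median log2 fold change -0.048), and Slc12a5, the chloride exporter that sets inhibitory responses, had 0.26 (adjusted p = 0.127). Of 8 dopaminergic genes 0 passed as well (median -0.038), with Qdpr, which recycles the cofactor of Th, at -0.097 (adjusted p = 0.383). Of 7 genes of the conventional synapse, 0 passed (median -0.0044), with the vesicle fusion gene Snap25 at 0.22 (adjusted p = 0.160).

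Among 13 peptide and subtype genes 1 rose, Vip, the gene of vasoactive intestinal peptide (log2 fold change 0.43, adjusted p = 0.0229 by edgeR), and Prox1, the most abundant, had 0.020 (adjusted p = 0.913). Among 5 calcium-binding genes 1 rose, Scgn, which encodes secretagogin of amacrine and cone bipolar cells (0.52, adjusted p = 0.0284 by edgeR), and Necab1 had -0.38 (adjusted p = 0.151). Vip and Scgn each passed in 2 of 6 comparisons with 1 retina left out, and the count of 1 of 13 is near the 7.35% of all genes that passed as higher.

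**Figure D5:**
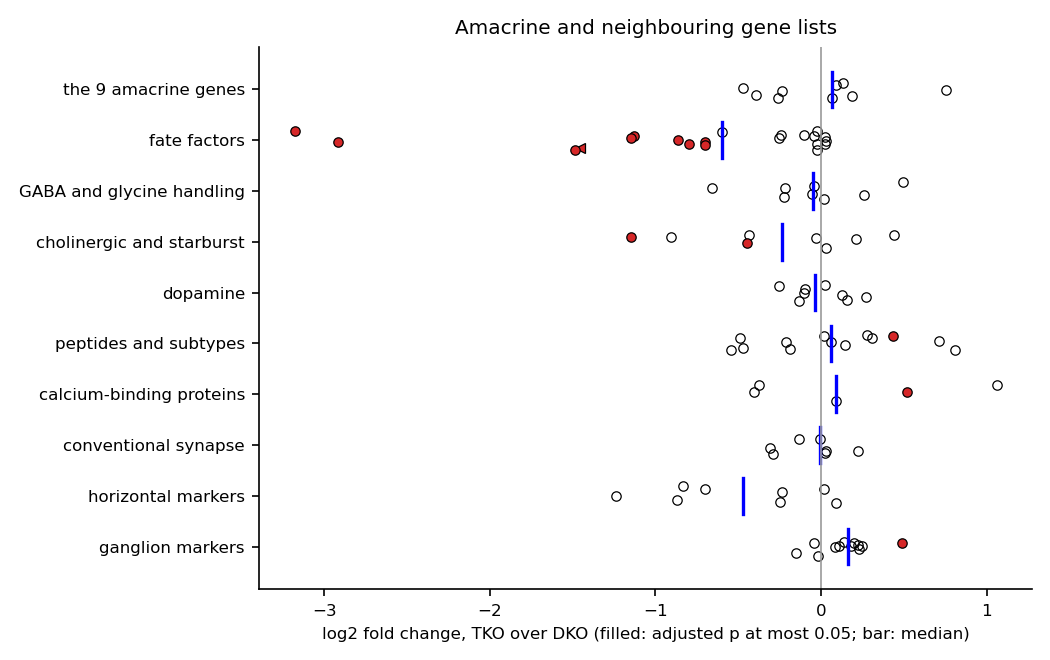
Log2 fold change (Rb1/p107/Hells TKO over Rb1/p107 DKO) of each gene in the amacrine lists and in the horizontal and ganglion lists, filled at an adjusted p of at most 0.05, with a bar at the median of each list and the left triangle showing Ptf1a at its bound. The transcription factors have a median of -0.60 with 10 of 21 passing as lower, and the 9 amacrine cell genes have a median of 0.068 with 0 passing.

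Horizontal cells share Tfap2a, Tfap2b and Slc32a1 with amacrine cells, and ganglion cells share Calb2. Of 8 horizontal cell genes 0 passed in edgeR, with a median log2 fold change of -0.47 and with Prox1 at 0.020 and Calb1 at 0.092 as its most abundant genes, which also stand in the amacrine lists. The other 6 were fitted below 0, from -0.23 for Gja10 to -1.24 for Onecut1 (adjusted p = 0.0511 by edgeR). The summed level of the list, most of it from Prox1 and Calb1, ran from 288 to 363 CPM in Rb1/p107/Hells TKO and from 312 to 360 CPM in Rb1/p107 DKO retinae, so that the groups overlapped. Of 12 ganglion cell genes 1 passed as higher, the neurofilament gene Nefh, a share near that of all genes (7.35%), and the median was 0.16, with Nefl at 0.22 and Nefm at 0.20. The part of horizontal and ganglion cells in the values of the 9 genes was not tested.

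The 9 amacrine cell genes together took 1956, 2154 and 2210 CPM in Rb1/p107/Hells TKO and 2148, 2254 and 2111 in Rb1/p107 DKO retinae. These sums overlapped between genotypes. Without the TMM adjustment they were 0.179%, 0.201% and 0.220% of the library total in Rb1/p107/Hells TKO and 0.228%, 0.242% and 0.218% in Rb1/p107 DKO retinae, and overlapped through replicate 3. Lens genes summed to 49.6, 275 and 41.2 CPM in Rb1/p107/Hells TKO and to between 8.94 and 9.55 CPM in Rb1/p107 DKO retinae, and 4 of the 9 tested rose and 1 fell. The 4 that rose were the crystallin genes Cryaa, Cryba1, Crybb2 and Crygs. On the sum every Rb1/p107/Hells TKO retina was above every Rb1/p107 DKO retina. Bfsp1, Bfsp2 and Mip did not pass (adjusted p = 0.685, 0.769 and 0.487 by edgeR). Bfsp1 had 18, 53 and 23 counts in Rb1/p107/Hells TKO and 34, 29 and 36 in Rb1/p107 DKO retinae. The sum and these genes were highest in Rb1/p107/Hells TKO replicate 2. Calb2 and Th were also highest in that retina, and the part of lens RNA in the values was not tested.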

How the data were processed

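Counts were analysed from 6 whole P21 retinae (n = 3 for Rb1/p107/Hells TKO, n = 3 for Rb1/p107 DKO), grouped by the sample labels. The authors deposited raw counts per gene symbol. Their methods name STAR, GRCm38 and HTSeq with at most 3 alignments per read, whereas the submitters' processing notes name TopHat2, featureCounts and DESeq2. Which made the table, and the strand setting of the counting, are not given in the sources used here. Reads aligned more than once make genes with near-identical copies less certain.

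Genes with a sum under 10 were removed. The test was edgeR 4.0.16 in R 4.3.3 (TMM, quasi-likelihood F test, Benjamini-Hochberg adjustment over 16904 genes), checked on simulated data, with DESeq2 1.42.0 as an alternative. For normalized counts, each count was divided by its TMM-scaled library size over the mean of these sizes. Standard errors were obtained from the fold change and its F, and 95% intervals use the t distribution of the fit. A count of 0 was set to 3 counts for a bound, and such limits cover counting error only. Ratios used 1 added count and two-sided exact permutation tests. Alternatives changed the tool, scaling, filter, dispersion, pairing, threshold, added count and retinae.

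Coordinates and exon lengths come from GENCODE M21 (22743 of 24062 symbols matched) and promoters from RefSeq GRCm38.p6. Members and lists were chosen with earlier results of these data known. Named were the 9 members, the listed genes that passed, the most abundant of each list that did not, the 2 most abundant genes of the dividing, rod, horizontal and ganglion lists (other marker lists are given by counts), the 3 genes most like a member, and Hells, Rb1 and Rbl1. Slc18a3, Slc5a7, Megf10, Fezf1, Ccnb1, Mcm6, Nefh, Onecut1, Gja10, the named lens genes and the genes overlapping members were named after their values were seen. One marker gene is not reported here. The tumor RNA-seq and the ATAC-seq were not analysed here.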

Additional observations from a re-analysis of the deposited data

How the results depend on the processing

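The 9 amacrine cell genes gave 144 log2 fold changes under alternatives of the edgeR test, of which 125 kept their direction and their side of an adjusted p of 0.05, 14 kept their direction and passed it, and 5 changed sign. DESeq2 passed 3 genes (2 of them lower), beside 3236 of all genes (19.6%), with adjusted p-values of 0.0275 for Gad2, 0.0414 for Tfap2b and 0.0363 for Chat. With scaling to total counts only, under which the median over all genes went from -0.011 to -0.17, 2 genes passed, both lower, beside 3388 of all genes (20%) (Gad2 -0.63, adjusted p = 0.0398, and Tfap2b -0.54, adjusted p = 0.0474), the median of the 9 was -0.088, and Gad1 (-0.023), Slc6a9 (-0.088) and Calb2 (-0.070) changed sign. Leaving out 1 retina gave 0 to 3 genes passing (0 to 2 of them lower), beside 3.88% to 21.4% of all genes, and a median from -0.050 to 0.089. The 3 genes passed without Rb1/p107/Hells TKO replicate 3, where 21.4% of all genes passed. Without Rb1/p107 DKO replicate 3, 2 genes passed beside 19.2% of all genes. Calb2 then ran from -0.050 to 0.17, with the change of sign without Rb1/p107 DKO replicate 1. Over the same comparisons Gad2 ran from -0.60 to -0.35 (adjusted p from 0.0228 to 0.201), Tfap2b from -0.51 to -0.28 (0.0291 to 0.233) and Chat from 0.53 to 0.98 (0.0169 to 0.253). Without replicate 3 of both genotypes, chosen after seeing the data, 4 genes passed (3 of them lower), 1 met the fold criteria (Chat, 1.11), the median was -0.00034 and Slc6a9 was at -0.00034. The cause was not tested. The Gad1 to Gad2 difference kept its direction in each alternative tried, from 0.49 to 0.72 with 1 retina left out.

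The replicate numbers did not pair the retinae (correlations of same-numbered deviations 0.0517, -0.0451 and -0.163). With a replicate block 0 of the 9 genes passed (Gad2 -0.47, adjusted p = 0.169), and 106 genes passed in all, against 2799 without it, with 90 against 1074 by the fold criteria. Over all genes, leaving out 1 retina gave 647 to 3590 passing and 471 to 1500 by the fold criteria, leaving out replicate 3 of both genotypes 4663 and 1873, and a log2 threshold of 0.5 gave 2087. Of the 11 other amacrine genes that fell, DESeq2, RLE, upper-quartile scaling, total counts, no filter and robust dispersion kept all 11, filterByExpr 10 and at least 10 counts in every library 9, since Ptf1a and, under the latter, Ebf2 were removed before testing. The replicate block kept 0, at adjusted p-values from 0.0505 to 0.0962 with close fold changes (Ebf2 -3.15, Foxn4 -2.93, Sox2 -1.16), and leaving out 1 retina kept 5 to 11 (5 without Rb1/p107 DKO replicate 2, 6 without Rb1/p107/Hells TKO replicate 2 or Rb1/p107 DKO replicate 1). Vip (adjusted p = 0.0705) and Scgn (adjusted p = 0.0612) did not pass with total counts only. Ptf1a had 15 counts or fewer per library, so depth limits its fold to a bound.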
